A study of Homo sapiens with 4 samples.

Results

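The genes of the surrogate light chain, VPREB1 and IGLL1, were followed together with their relatives VPREB3 and IGLL5 in SU-DHL-5 and Toledo cells. They are 4 of the 41507 genes in the gene table and have 6 of the 67765 rows in the transcript table. The 4 genes were chosen by name, with their JQ1/DMSO ratios and their levels in both lines already known, so those ratios and levels are given as a description and without a test. SU-DHL-5 and Toledo are established human cell lines, which the labels give as diffuse large B-cell lymphoma (DLBCL) cells and as B lymphocytes. BET proteins read acetylated histones, and the small molecule JQ1 displaces them from chromatin. For each line, 1 sample was given JQ1 at 1 µM and 1 sample the vehicle DMSO, for 6 h by the labels, while the study's text gives a longer time. Cells of both treatments were of the same line and medium, and neither line carries a further allele or agent in the labels.

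In the bone marrow, a B-cell precursor that has rearranged its immunoglobulin heavy chain gene has no light chain yet. VPREB1 and IGLL1 (also called lambda 5) pair with each other to form a stand-in, the surrogate light chain, which joins the µ heavy chain and the CD79A and CD79B signaling chains in the pre-B-cell receptor. Signals from this receptor drive precursor cells to divide, and the surrogate light chain genes are then shut down before a conventional kappa or lambda chain is made. VPREB3 is a related protein that binds immunoglobulin chains inside the cell and is also made in germinal center B cells and their lymphomas. IGLL5 lies in the lambda light chain locus and joins its own first exon to lambda J and C exons.

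All 4 genes lie on chromosome 22 of GRCh38. VPREB3 is at chr22:23752743-23754443 on the reverse strand and VPREB1 at chr22:22244788-22245514 on the forward strand. IGLL1 is at chr22:23573125-23580308 on the reverse strand and IGLL5 at chr22:22887780-22895834 on the forward strand. The RefSeq promoter table for GRCh38.p14 had entries for 3 of the 4, VPREB3, VPREB1 and IGLL1. The 250 bases before each start site are shown because these are the genes with the largest JQ1/DMSO differences here, with 2 short words in capitals that B-lineage factors are known to bind. These are the E-box CAGGTG (or CACCTG on the other strand), bound by the E2A protein encoded by TCF3, and the octamer ATGCAAAT (or ATTTGCAT), bound by OCT proteins. The start sites are those of RefSeq, and the 250 bases of VPREB3 and IGLL1 overlap the gene as placed above. First exons of GENCODE transcripts reach into the bases shown for all 3 genes. For VPREB3 such an exon reaches 23754468 and takes in part of the octamer. The windows are chr22:23754426-23754675 on the reverse strand for VPREB3, chr22:22244536-22244785 on the forward strand for VPREB1 and chr22:23580291-23580540 on the reverse strand for IGLL1, each written 5′ to 3′.
VPREB3: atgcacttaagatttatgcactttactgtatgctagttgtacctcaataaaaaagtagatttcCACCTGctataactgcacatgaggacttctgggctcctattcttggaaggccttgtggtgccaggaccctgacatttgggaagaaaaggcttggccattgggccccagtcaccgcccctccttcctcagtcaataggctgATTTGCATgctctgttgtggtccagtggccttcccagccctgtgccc
VPREB1: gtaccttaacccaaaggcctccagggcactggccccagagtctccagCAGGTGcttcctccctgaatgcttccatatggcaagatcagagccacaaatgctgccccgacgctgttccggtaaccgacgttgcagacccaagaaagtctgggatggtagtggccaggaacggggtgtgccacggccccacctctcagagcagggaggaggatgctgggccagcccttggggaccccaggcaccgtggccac
IGLL1: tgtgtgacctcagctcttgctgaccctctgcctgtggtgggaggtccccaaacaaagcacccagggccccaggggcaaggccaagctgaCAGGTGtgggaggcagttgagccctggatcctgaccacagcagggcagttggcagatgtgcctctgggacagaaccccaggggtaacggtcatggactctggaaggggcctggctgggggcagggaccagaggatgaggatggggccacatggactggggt

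CAGGTG was found in all 3 promoters, on either strand, at position -187 from the start site in VPREB3, -203 in VPREB1 and -161 in IGLL1. A further match lay at position 6 past the start of VPREB3, beyond the bases shown. Over windows of 300 bases (250 before and 50 after the start), 20.6% of the 35116 promoters in the table held this word. The more general E-box CANNTG, which contains it, was found 4 times for VPREB3, 3 times for VPREB1 and 6 times for IGLL1, and is held by 68.7% of all promoters. The octamer was found in the VPREB3 promoter alone among the 3, at position -47, and is held by 1.77% of promoters. The Ikaros word TGGGAA was found at -111 and -17 in VPREB3 (24.0% of promoters), while the palindromic EBF motif (1.21%) and TATAAA (11.5%) matched in none of the 3 windows. Positions count from the RefSeq start, so the Ikaros match at -17 lies inside VPREB3 as placed above. These matches describe the letters of the windows and say nothing of whether a protein was bound.

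The values are RPKM, read numbers divided by feature length and by the depth of the library, so that levels of genes of different length can be set side by side. Each sample has 2 libraries in the tables. Nothing states that these came from separate cultures, so they were averaged and counted as 1 sample (n = 1 per condition). With 1 sample on each side, differences were not tested and carry no p-value. The 8 libraries held 14617583 to 17679831 mapped reads, recovered from the RPKM values, and 95% exact binomial intervals for the ratio or share of these reads, with no pseudocount, are given in brackets. They cover counting error only, since PCR reads without molecular identifiers are not independent molecules, and the number of cells and the RNA per cell cannot be told apart. Differences are log2((A + 0.1)/(B + 0.1)) of the sample means in RPKM, and a gene is called higher or lower past 2-fold (log2 of 1) among genes of at least 1 RPKM in either sample. Within a sample, 0.0447% to 0.110% of genes of at least 1 RPKM differed by over 2-fold between its libraries.

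The markers of each line were set beside the labels. All 10 markers of mature B cells were at 1 RPKM or more in every sample, with sums of 1101 to 1227 RPKM in SU-DHL-5 DMSO and 1128 to 1179 RPKM in Toledo DMSO. Of 10 markers of B-cell precursors, 1 was at 1 RPKM or more in SU-DHL-5 and 6 were in Toledo. Their sum was 14.3 to 14.8 RPKM in SU-DHL-5 DMSO and 113 to 135 RPKM in Toledo DMSO. Toledo held RAG1 (23.1 and 30.1 RPKM in DMSO) and RAG2 (18.3 and 22.1 RPKM), which cut immunoglobulin genes for rearrangement, and DNTT (25.7 and 29.1 RPKM), which adds bases at the joins. BCL6, the factor that defines germinal center B cells, was at 2.37 and 2.60 RPKM in Toledo DMSO and 38.0 and 38.3 RPKM in SU-DHL-5 DMSO. RAG1, RAG2 and BCL6 were singled out after their values were seen. CD34, ERG and KIT, also on the precursor list, were at 0 in Toledo DMSO. LEF1 of that list was higher in SU-DHL-5 DMSO (13.85 and 14.45 RPKM) than in Toledo DMSO (6.85 and 7.56 RPKM), and FLT3 was under 1 RPKM in both lines. The libraries labelled Toledo thus held mRNA of 6 of the 10 precursor markers and of all 10 mature B-cell markers. The identity of these libraries was not tested. Sums of T-cell and myeloid markers were at most 1.24 and 1.35 RPKM in any library.

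VPREB3 was measured in both lines and was lower with JQ1 in both. In SU-DHL-5 its DMSO libraries held 13.5 and 18.8 RPKM (124 and 187 reads), and its JQ1 libraries 2.18 and 1.75 RPKM (21 and 15 reads). The libraries of the treatments did not overlap, as for 38.5% of all genes in this direction, and the log2 ratio was -2.98 [-3.58, -2.54]. In Toledo the DMSO libraries held 312 and 278 RPKM (3229 and 2641 reads), and the JQ1 libraries 21.6 and 23.2 RPKM (205 and 219 reads). The groups again did not overlap (43.6% of all genes in this line and direction), and the log2 ratio was -3.72 [-3.87, -3.58], a mean 13.2-fold lower. The intervals of the 2 lines meet at -3.58, and the difference between lines was not tested. Even so, Toledo cells given JQ1 (mean 22.4 RPKM) held more VPREB3 mRNA than SU-DHL-5 cells given DMSO (mean 16.2 RPKM). The DMSO libraries of SU-DHL-5 differed from each other by a log2 ratio of 0.48 [0.14, 0.82], and those of Toledo by -0.17 [-0.24, -0.09], both beyond counting error and both much smaller than the difference with JQ1.

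VPREB1, the variable-like part of the surrogate light chain, was found in Toledo alone. The Toledo DMSO libraries held 186 and 183 RPKM (2111 and 1904 reads) and the JQ1 libraries 11.5 and 12.7 RPKM (120 and 131 reads). The JQ1 libraries lay below both DMSO libraries, as for 43.6% of all genes in this line. The log2 ratio was -3.92 [-4.12, -3.75], a mean 15.3-fold lower. The libraries of each Toledo sample agreed within counting error. In SU-DHL-5 no read fell on VPREB1 in any of the 4 libraries. A count of 0 allows up to 3 reads over both libraries of a sample, or 0.143 RPKM in DMSO and 0.150 RPKM with JQ1, so a JQ1 difference in SU-DHL-5 could not be given.

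IGLL1, the constant-like part, was the most abundant of the 4 in Toledo in DMSO and the one with the largest JQ1/DMSO difference. Its Toledo DMSO libraries held 695 and 612 RPKM (11067 and 8956 reads). The JQ1 libraries held 15.7 and 19.4 RPKM (230 and 282 reads), which left 2.69% of the DMSO mean. The log2 ratio was -5.21 [-5.35, -5.10], a mean 37.2-fold lower, and no other gene among the 9646 measured at 1 RPKM or more in Toledo had a lower ratio. The pseudocount keeps genes of low DMSO level from reaching so low a ratio. The Toledo libraries of IGLL1 differed within each sample beyond counting error, by a log2 ratio of -0.18 [-0.22, -0.14] in DMSO and 0.30 [0.05, 0.56] with JQ1. In SU-DHL-5 the DMSO libraries held 2 and 4 reads (0.141 and 0.262 RPKM) and the JQ1 libraries 1 and 2 reads (0.0673 and 0.152 RPKM). These libraries overlap, and the interval of their log2 ratio (-0.52) ran from -3.56 to 1.30, so that a difference was not detectable at this depth.

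IGLL5 had the opposite distribution, with its higher level in SU-DHL-5. The SU-DHL-5 DMSO libraries held 27.2 and 29.4 RPKM (452 and 529 reads) and the JQ1 libraries 14.3 and 15.8 RPKM (250 and 244 reads). The groups did not overlap, as for 38.5% of all genes in this line and direction. The log2 ratio of -0.91 [-1.08, -0.76] was smaller than a 2-fold difference, with an interval that reaches past it. In Toledo the DMSO libraries held 11 and 8 reads (0.588 and 0.465 RPKM) and the JQ1 libraries 7 and 0 reads (0.406 and 0 RPKM). The interval of that log2 ratio, -1.05, ran from -2.87 to -0.06, and at under 1 RPKM the gene did not enter the counts of called genes. Library 1 alone gave -0.44 and library 2 alone -2.50, so the size of this value rests on which library is read.

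**Figure D1:**
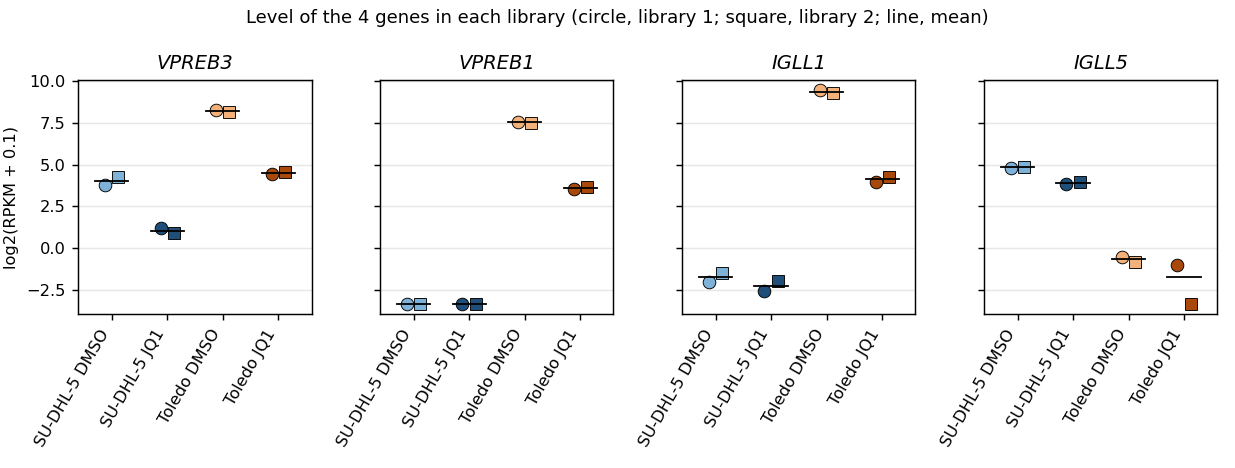
Level of VPREB3, VPREB1, IGLL1 and IGLL5 in each library as log2(RPKM + 0.1), by cell line and treatment, with circles for library 1, squares for library 2 and a line for the log2 of the mean. In Toledo, VPREB3, VPREB1 and IGLL1 lie between 183 and 695 RPKM in DMSO and between 11.5 and 23.2 RPKM with JQ1, while in SU-DHL-5 VPREB1 lies at 0 in all 4 libraries.

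Set against all genes, the number of members lower with JQ1 was as follows. In Toledo 3 of the 3 members of at least 1 RPKM were lower by 2-fold or more, where 8.01% of 9646 genes were. In SU-DHL-5 it was 1 of 2 (VPREB3 and not IGLL5), where 6.28% of 9316 genes were. VPREB3 was lower by 2-fold or more in both lines, as were 2.98% of the 8718 genes measured in both. Since these ratios were known when the genes were chosen, nothing is read from the counts. By rank, 12 genes had a lower ratio than VPREB1 in Toledo and 19 a lower one than VPREB3. In SU-DHL-5, 39 genes had a lower ratio than VPREB3 and 660 a lower one than IGLL5. These ranks also depend on level, since the pseudocount limits how low the ratio of a gene of low DMSO level can be. Over all genes the median log2 ratio was -0.07 in Toledo, beside 0.02 in SU-DHL-5. The members are short, between 585 bases (VPREB3) and 1059 bases (IGLL5), and against the median of the 500 genes nearest in length the Toledo ratios were -3.65 for VPREB3, -3.85 for VPREB1 and -5.03 for IGLL1.

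**Figure D2:**
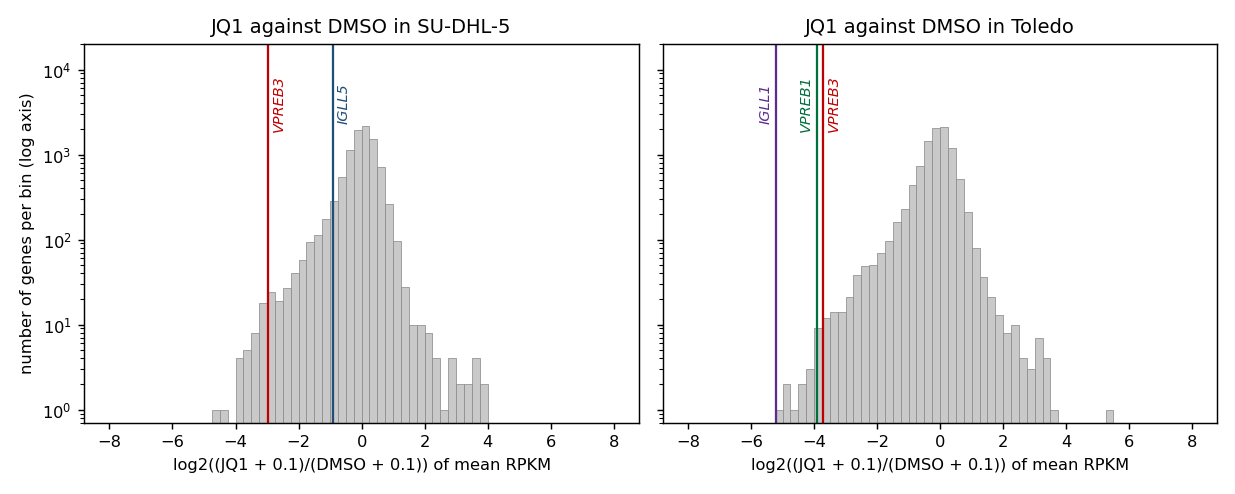
Number of genes (log axis) by log2 ratio of JQ1 over DMSO among genes of at least 1 RPKM in either sample, for SU-DHL-5 (left) and Toledo (right), with vertical lines at the member genes. VPREB3 stands at -2.98 in SU-DHL-5 and -3.72 in Toledo, IGLL1 and VPREB1 stand at -5.21 and -3.92 in Toledo, and IGLL5 stands at -0.91 in SU-DHL-5.

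The order of the 4 genes by level differed between the lines. In Toledo cells given DMSO, IGLL1 (mean 653 RPKM) came first, followed by VPREB3 (295 RPKM), VPREB1 (185 RPKM) and IGLL5 (0.526 RPKM). No neighbours in this order overlapped between libraries. Only 118 of the 13607 genes listed above 0 in this sample had a higher level than IGLL1, 231 a higher level than VPREB3 and 365 a higher level than VPREB1. With JQ1 the order in Toledo changed to VPREB3 (22.4 RPKM), IGLL1 (17.5 RPKM), VPREB1 (12.1 RPKM) and IGLL5 (0.203 RPKM), again without overlap between neighbours. By then 2510 genes had a higher level than VPREB3, 3034 a higher level than IGLL1 and 3957 a higher level than VPREB1, of 13204. In SU-DHL-5 the order was IGLL5, VPREB3, IGLL1 and VPREB1 in both samples, and neighbours did not overlap. The order of IGLL1 and VPREB1 there rests on very few reads. With JQ1 the IGLL1 mean (0.110 RPKM) lay below the floor of VPREB1 (0.150 RPKM), so their order is not resolved.

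Between the lines without JQ1, IGLL1, VPREB1 and VPREB3 were higher in Toledo (3 of 4 members; 16.7% of 10078 genes were higher by 2-fold or more) and IGLL5 was lower (1 of 4; 14.2% of genes were lower). VPREB3 was 18.3-fold higher in Toledo, with a log2 ratio of 4.18 [4.02, 4.35]. IGLL1 had 20023 reads in Toledo DMSO and 6 in SU-DHL-5 DMSO, a log2 ratio of 11.08 [10.53, 13.10]. With a pseudocount of 1 RPKM this became 9.09, because its SU-DHL-5 level lies near the pseudocount. VPREB1 was at least 1289-fold higher in Toledo in DMSO and at least 80-fold higher with JQ1, taking 3 reads over both SU-DHL-5 libraries as the floor. IGLL5 was 53.8-fold lower in Toledo by its means, with a log2 ratio of -5.50 [-6.48, -5.09], or -4.26 with a pseudocount of 1 RPKM. Line and sample cannot be told apart in these ratios, as there is 1 sample per line and treatment.

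The transcript table splits IGLL1 and IGLL5 into 2 rows each, and the rows differ by the middle exon. IGLL1_2 (901 bases) has the length of all 3 exons of IGLL1, and IGLL1_1 (785 bases) that of exons 1 and 3. IGLL5_1 (1059 bases) has the length of exons 1 and 2 of IGLL5 with the exon of IGLC1, a lambda constant gene, and IGLL5_2 (940 bases) that of exon 1 with the IGLC1 exon. The middle exons are the J-like part of each gene, and they are shown because the transcripts turn on them. They are read from GRCh38 at chr22:23574967-23575082 on the reverse strand for IGLL1 (116 bases) and chr22:22893700-22893818 on the forward strand for IGLL5 (119 bases). Aligned from the last base without gaps, 74 of 116 bases are the same (63.8%), and capitals mark the bases that differ.
IGLL1: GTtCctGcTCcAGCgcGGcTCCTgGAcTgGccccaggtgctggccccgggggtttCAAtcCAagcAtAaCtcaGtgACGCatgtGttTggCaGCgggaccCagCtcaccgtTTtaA
IGLL5: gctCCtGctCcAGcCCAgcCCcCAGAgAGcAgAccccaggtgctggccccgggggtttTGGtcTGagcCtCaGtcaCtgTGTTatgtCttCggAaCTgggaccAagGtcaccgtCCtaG

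In Toledo most IGLL1 reads were assigned to the row with the middle exon. The rows share the other exons by their lengths, and how reads there were divided is not given in the sources used here. IGLL1_2 held 652 and 570 RPKM in Toledo DMSO and 14.3 and 18.8 RPKM with JQ1, while IGLL1_1 held 49.3 and 48.3 RPKM and then 1.65 and 0.710 RPKM. IGLL1_1 took 6.49% [6.16, 6.84] of the reads in DMSO (1300 of 20023) and 5.86% [3.99, 8.26] with JQ1 (30 of 512), and these intervals overlap. Their log2 ratios were -5.20 [-5.35, -5.08] for IGLL1_2 and -5.26 [-5.95, -4.85] for IGLL1_1. The row with the J-like exon and the row without it were thus lower by like amounts, within counting error. All 9 IGLL1 reads of SU-DHL-5 were on IGLL1_2, 6 in DMSO and 3 with JQ1, too few to give a share.

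IGLL5 split between the lines by transcript. In SU-DHL-5, 980 of 981 reads in DMSO and 491 of 494 with JQ1 were on IGLL5_2, the row without the J exon. IGLL5_2 held 30.6 and 33.1 RPKM in DMSO and 16.1 and 17.5 RPKM with JQ1, a log2 ratio of -0.92 [-1.09, -0.77]. In Toledo all 19 reads in DMSO and all 7 with JQ1 were on IGLL5_1, the row with the J exon, and IGLL5_2 had no read. The share of IGLL5_1 in DMSO was 100% [82.4, 100] in Toledo beside 0.102% [0.00258, 0.567] in SU-DHL-5, so the intervals did not overlap, on 19 reads in Toledo. How reads were divided between transcripts is not given in the sources used here.

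**Figure D3:**
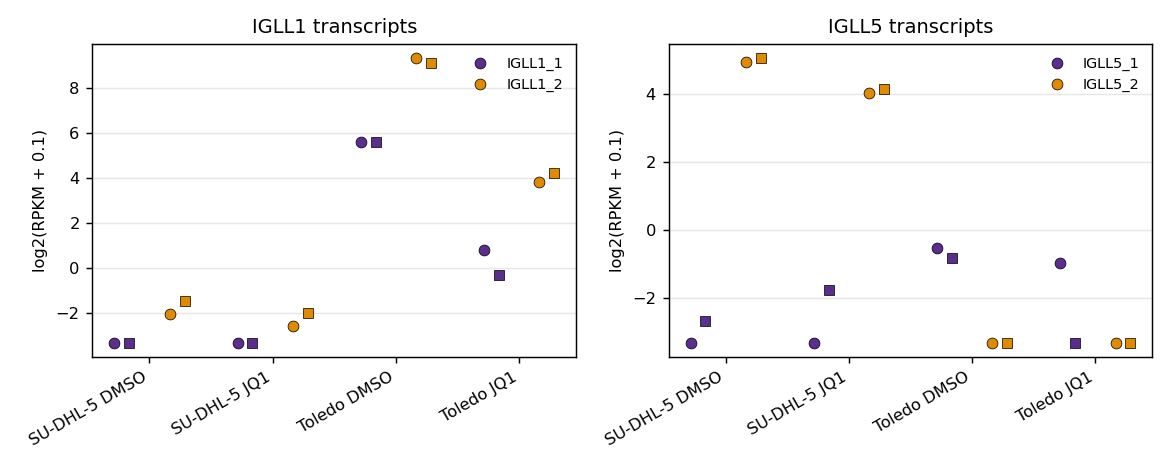
Level of the 2 transcript rows of IGLL1 (left) and IGLL5 (right) as log2(RPKM + 0.1) in each library, by cell line and treatment, with circles for library 1 and squares for library 2. IGLL1_2 lies above IGLL1_1 wherever IGLL1 was found, and IGLL5 reads lie on IGLL5_2 in SU-DHL-5 and on IGLL5_1 in Toledo.

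The near-copies of these genes limit what the IGLL5 values stand for. The last exon of IGLL5 has the same 451 bases as the IGLC1 exon (100%), so reads there cannot be told apart from reads of a rearranged lambda light chain. In the tables IGLC1 is listed at 0 in all libraries. So are all 357 immunoglobulin segment genes, none of which has a transcript row, as for 21725 genes in all, and 0 of those 21725 is above 0 in any library. A listing at 0 for these genes therefore says nothing of their expression. The last exon of IGLL1 shares 397 of 451 bases with that of IGLL5 (88.0%), with 18 runs of 50 bases in common. Whether the few IGLL5 reads of Toledo and the few IGLL1 reads of SU-DHL-5 came from the other gene was not tested. An antisense RNA gene overlaps the last exon of IGLL1, and the use of strand in the counting is not given in the sources used here. VPREB3 and VPREB1, at 64.1% identity over their transcripts, have no run of 50 bases in common.

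In Toledo the precursor genes differed among themselves with JQ1. Of 18 genes of the pre-B cell list (surface receptors, recombination enzymes and others that share the stage of the surrogate light chain), 12 were at 1 RPKM or more in Toledo. Of these, 3 were lower by 2-fold or more and 0 higher (8.01% of all genes were lower and 1.94% higher). They were IL7R, the receptor of the precursor growth factor IL-7 (9.78 and 12.5 RPKM in DMSO, 2.18 and 1.74 RPKM with JQ1, log2 ratio -2.45), DNTT (log2 ratio -2.12) and BMP3 (log2 ratio -1.27). RAG1 (log2 ratio 0.10) and RAG2 (log2 ratio 0.14) were not past 2-fold. The list's median was -0.17, beside -0.07 for all genes. In SU-DHL-5, 4 genes of the list were at 1 RPKM or more, with a median of -0.28 beside 0.02. Of these, 1 was lower by 2-fold or more, where 6.28% of all genes were. It was the surface protein CD24 (13.4 and 13.8 RPKM in DMSO, 6.20 and 6.70 RPKM with JQ1, log2 ratio -1.06). VPREB1, VPREB3 and IGLL1 had lower JQ1/DMSO ratios in Toledo than each of these 12 genes. Since they were chosen with their ratios known, nothing is read from this contrast.

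Of the 18 chains that the surrogate light chain pairs with or gives way to, 17 are in the table and 15 of them are listed at 0 in all libraries, among them the µ heavy chain gene IGHM. The 2 that could be read were the signaling chains. CD79A held 644 and 562 RPKM in SU-DHL-5 DMSO and 370 and 367 RPKM with JQ1 (log2 ratio -0.71), and 313 and 296 RPKM in Toledo DMSO and 173 and 185 RPKM with JQ1 (log2 ratio -0.76). For CD79B the log2 ratio was -0.28 in Toledo and 0.01 in SU-DHL-5. Neither was past 2-fold, so in Toledo the signaling chains of the pre-B-cell receptor kept a larger part of their level than VPREB1 and IGLL1 did. VPREB1 and IGLL1 were chosen with their ratios known, so this is a description.

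Downstream of the receptor, 17 signaling genes were measured in both lines. In SU-DHL-5, 8 were lower by 2-fold or more and 0 higher (6.28% of all genes were lower and 1.84% higher). The median was -0.85, beside 0.02 for all genes. In Toledo 5 were lower and 0 higher (8.01% of all genes were lower and 1.94% higher), and the median was -0.75, beside -0.07. PTPN6, a phosphatase that restrains receptor signals, held 122 and 103 RPKM in SU-DHL-5 DMSO and 27.7 and 29.6 RPKM with JQ1 (log2 ratio -1.97), and had a log2 ratio of -2.58 in Toledo. BLNK, the adaptor that carries the pre-B-cell receptor signal, had a ratio of -1.45 in SU-DHL-5 while its Toledo ratio was -1.92. CD22, an inhibitory receptor, had ratios of -1.47 and -1.11 in the same order, and the kinase BTK had -1.26 and -0.98. The kinase BLK had a ratio of -2.49 in Toledo beside -0.03 in SU-DHL-5, a difference between lines that was not tested. Some genes of the list had ratios above 0 in both lines, none past 2-fold. With SU-DHL-5 first, they were LYN (0.25 and 0.35), FYN (0.72 and 0.67), PLCG2 (0.46 and 0.42), GRB2 (0.23 and 0.18) and PRKCB (0.62 and 0.36). All other genes of the list had ratios below 0 in both lines. Among mature B-cell markers, which include BLK and CD22, 4 of 10 were lower by 2-fold or more in SU-DHL-5 (median -0.80) and 5 of 10 in Toledo (median -0.94). These included MS4A1, which encodes CD20 (ratios of -1.99 and -1.47), and FCRLA (-1.57 and -2.59).

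In Toledo the 23 regulators of early B-cell genes were largely nearer to their DMSO level than VPREB1 and IGLL1. For SU-DHL-5 this could not be compared, since VPREB1 had no read there and IGLL1 too few. In SU-DHL-5, 2 of the 22 measured were lower by 2-fold or more and 0 higher (median -0.14). In Toledo 3 of 23 were lower and 1 higher (median -0.32). Of all genes, 6.28% were lower and 1.84% higher in SU-DHL-5, and 8.01% were lower and 1.94% higher in Toledo. TCF3, which encodes E2A, the factor of the E-box CAGGTG, held 88.8 and 96.6 RPKM in Toledo DMSO and 93.9 and 97.4 RPKM with JQ1, a log2 ratio of 0.04. EBF1 and PAX5, which act with E2A on early B-cell genes, had ratios of -0.42 and 0.27 in Toledo. These 3 were singled out after their values were seen. The regulators past 2-fold in Toledo were IRF8 (log2 ratio -3.09), SPI1, which encodes PU.1 (-2.51), IKZF1, which encodes Ikaros (-1.29), and ID2, an inhibitor of E proteins (1.11). In SU-DHL-5 they were MYB (-1.45) and SPI1 (-1.31). No ratio in this list was as low as that of VPREB3 in the same line, a gene chosen with its ratios known.

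**Figure D4:**
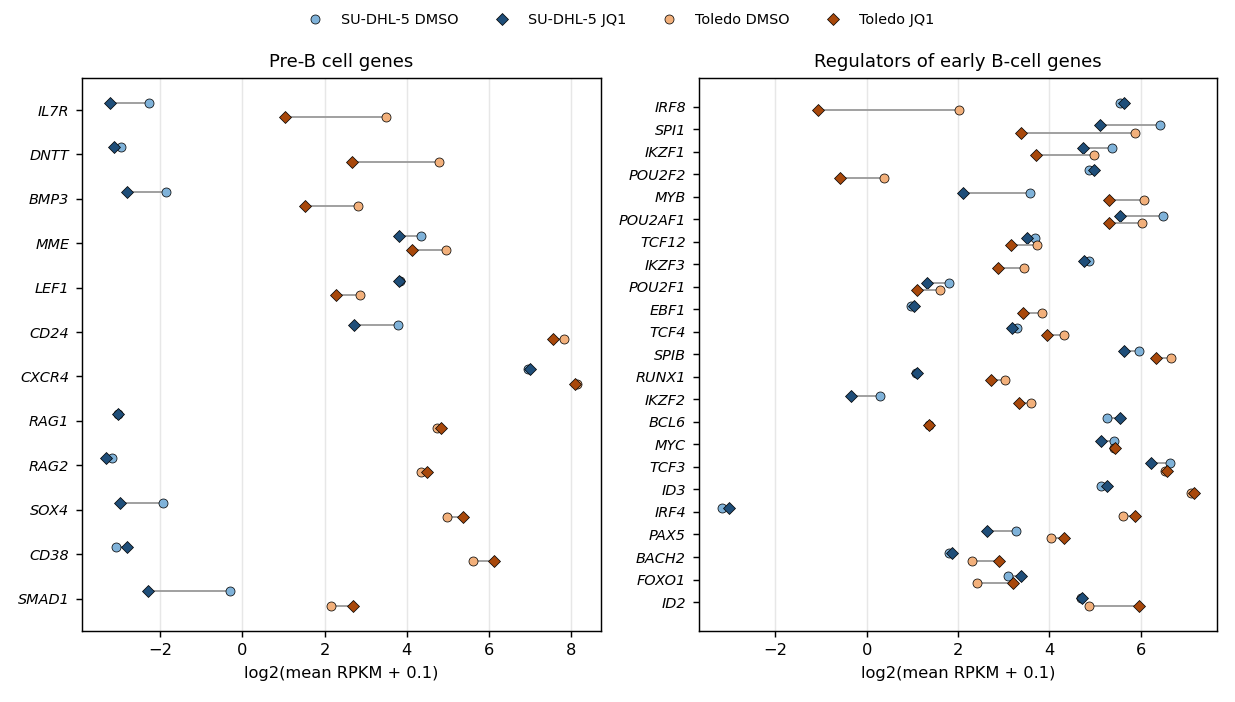
Mean level as log2(mean RPKM + 0.1) of pre-B cell genes (left) and regulators of early B-cell genes (right) of at least 1 RPKM in a Toledo sample, ordered by their JQ1/DMSO ratio in Toledo, with circles for DMSO and diamonds for JQ1, blue for SU-DHL-5 and orange for Toledo. IL7R and DNTT stand farthest below their DMSO level in Toledo on the left, and IRF8 and SPI1 on the right, while RAG1, RAG2 and TCF3 stand next to theirs.

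The neighbours of VPREB3 on chromosome 22, other than IGLL1, had ratios closer to 0 than its own. VPREB3 was chosen with its ratios known, so this contrast is a description. Of 17 genes within 200 kb, VPREB3 and IGLL1 among them, 7 were listed at 0 in all libraries, and 5 besides the members were at 1 RPKM or more. CHCHD10, a mitochondrial protein gene whose middle lies 12.7 kb from the start of VPREB3, had a log2 ratio of -0.58 in Toledo beside -0.57 in SU-DHL-5. SMARCB1, a subunit of the SWI/SNF chromatin remodeling complex, had -0.40 and -0.46 in that order, and MIF, a cytokine gene at 140 kb, had -0.34 and -0.17. DERL3, a gene of endoplasmic reticulum protein degradation, was lower by 2-fold or more in SU-DHL-5 (-1.17) and not in Toledo (-0.78). SLC2A11, a sugar transporter gene, was higher in SU-DHL-5 (1.02) and at 0.97 in Toledo. IGLL1 lies on the other side, at -178 kb, and its ratio of -5.21 in Toledo was the lowest in the region.

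**Figure D5:**
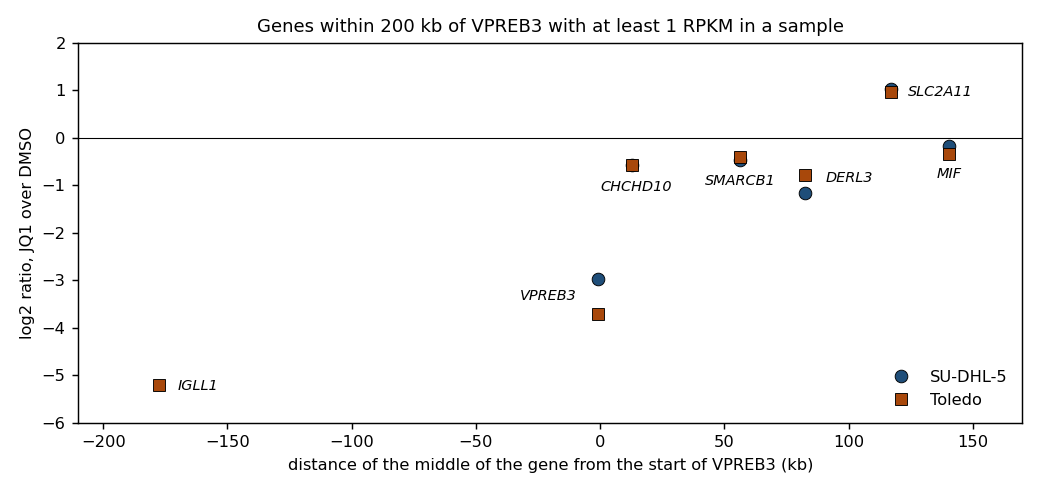
Log2 ratio of JQ1 over DMSO against the distance of each gene's middle from the start of VPREB3 in kb, for genes within 200 kb of at least 1 RPKM in a sample, with circles for SU-DHL-5 and squares for Toledo. VPREB3 (-2.98 and -3.72) and IGLL1 (-5.21, Toledo only) lie below the 5 other genes, which range from -1.17 to 1.02.

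The gene whose pattern over the 4 samples was most like that of VPREB3 was LAT2, an adaptor of lymphocyte receptor signaling. Likeness was the Euclidean distance of log2(RPKM + 0.1) over the 4 sample means after each gene's own mean was subtracted, among 10244 genes of at least 1 RPKM in a sample. LAT2, at a distance of 0.16, had means of 1.90 RPKM in SU-DHL-5 DMSO, 0.147 RPKM in SU-DHL-5 JQ1, 31.4 RPKM in Toledo DMSO and 2.42 RPKM in Toledo JQ1. IFITM1 (0.94), RASGRP2 (1.34), PLAC8 (1.37) and AOX1 (1.46) followed. That each was higher in Toledo and lower with JQ1 in both lines follows from how they were picked. In SU-DHL-5 JQ1, RASGRP2 (mean 0.046 RPKM) and AOX1 (mean 0.019 RPKM) lay under the pseudocount of 0.1 RPKM. IGLL1 (5.33), VPREB1 (5.50) and IGLL5 (9.68) were farther from VPREB3 than these 5. In SU-DHL-5 DMSO, IGLL1 held a mean of 0.201 RPKM and VPREB1 0 RPKM, so their distances depend on the pseudocount. The distances rest on 4 samples and are a description.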

How the data were processed

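The authors sequenced stranded mRNA libraries of both lines. The values they deposited are RPKM, in a gene table and a transcript table, made from trimmed paired reads and normalized to feature length and mapped reads. The submitters' processing notes name CASAVA 2.0 and the builds GRCh38 and hg38, while the aligner, the counting and the annotation are not given in the sources used here. Each table has 8 RPKM columns, and 0 of them belong to no sample here. Deposited start positions count from 0 and were raised by 1.

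The member genes and the gene lists were chosen with earlier results of these data known. The 2 libraries of a sample were averaged (n = 1), and no test was made. Mapped reads per library were recovered as the total that made values of single-exon genes whole reads, within a tolerance of 0.01 read (94.6% to 96.4% of these genes were whole). The length of a feature was the smallest from 100 to 40000 bases that made its values whole, which was found for 14942 of 14944 genes with a value. The steps were tested on simulated data. Intervals are exact binomial (Clopper-Pearson) at 95%. Depth was alike between libraries, and members under about 20 reads have wide intervals.

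Named genes were the 4 members, the genes within 200 kb of VPREB3 of at least 1 RPKM in a sample, up to 6 genes of each list past 2-fold in either line by the larger size, and the 5 genes most like VPREB3 in pattern. One gene that this rule names is not reported here. Alternatives were a pseudocount of 1 RPKM, division by the median ratio, summed transcript values, each library alone, centring on genes of like length, and other minimums (all genes above 0, or 5 RPKM). Sequences were taken from RefSeq (promoters, GRCh38.p14) and exon positions from GENCODE. The software was scipy 1.17.1, matplotlib 3.10.9, pandas 2.3.3 and numpy 2.4.6 under Python 3.11.15.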

Additional observations from a re-analysis of the deposited data

Results flagged for a closer look

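IRF8, a regulator of early B-cell genes, had a log2 ratio of JQ1 over DMSO of -3.09 in Toledo beside 0.09 in SU-DHL-5. Its Toledo libraries did not overlap between treatments, as for 43.6% of all genes in this direction. The SU-DHL-5 means were 46.6 RPKM in DMSO and 49.7 RPKM with JQ1, a ratio near the median of all genes (0.02). SOX4 had ratios of -1.06 in SU-DHL-5, where it held 26 reads in DMSO and 4 with JQ1, and 0.38 in Toledo. SMAD1 had ratios of -2.0 in SU-DHL-5, where it lay under 1 RPKM, and 0.53 in Toledo. SOX4 and SMAD1 are on the pre-B cell list. The differences between lines were not tested for these 3 genes.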

How the results depend on the processing

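Over 10 ratios of the 4 genes and 60 values under alternatives, none was reversed, 52 lay inside the counting interval of the reported value and 8 outside it. Some of these could not differ, since VPREB3 and VPREB1 have 1 transcript row each, with the values of the gene. Wide intervals for IGLL1 in SU-DHL-5 and IGLL5 in Toledo also take in most values. For IGLL1 in Toledo (-5.21) library 1 alone gave -5.46, library 2 alone -4.97 and centring on the 500 genes nearest in length -5.03. For VPREB3 between the lines (4.18) library 1 alone gave 4.52 and library 2 alone 3.88. With a pseudocount of 1 RPKM, the ratio of VPREB3 with JQ1 in SU-DHL-5 (-2.98) was -2.53, and the ratio between the lines was 9.09 for IGLL1 (11.08) and -4.26 for IGLL5 (-5.50), whose lower levels lie near the pseudocount. That pseudocount also took the share of all genes past 2-fold with JQ1 from 9.95% to 5.79% in Toledo and, in SU-DHL-5, from 8.12% to 4.63%. VPREB1 in SU-DHL-5 had 0 reads and so no alternative value. No paired analysis was possible because there was only 1 sample in each group. Reads limit IGLL1 in SU-DHL-5 and IGLL5 in Toledo.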

Other observations

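Genes of plasma cells, which end the lineage of the B-cell precursors that make the surrogate light chain, were also measured. MZB1, a chaperone for immunoglobulin assembly, held 83.1 and 79.0 RPKM in SU-DHL-5 DMSO and 22.4 and 21.5 RPKM with JQ1 (log2 ratio -1.88), and 81.6 and 66.5 RPKM in Toledo DMSO and 31.5 and 32.0 RPKM with JQ1 (log2 ratio -1.22). XBP1, a factor of antibody-secreting cells, had a log2 ratio of -0.96 in Toledo beside -1.20 in SU-DHL-5. IRF4 went the other way in Toledo, with 44.2 and 53.3 RPKM in DMSO and 56.9 and 60.1 RPKM with JQ1 (log2 ratio 0.26). In SU-DHL-5 it lay under 1 RPKM. Of the 5 plasma cell markers in the table, 2 of 2 measured in SU-DHL-5 and 1 of 3 measured in Toledo were lower by 2-fold or more. Among all genes, 8.01% were this much lower with JQ1 for Toledo, while the share for SU-DHL-5 was 6.28%. With only 2 and 3 markers measured, nothing is read from these counts. In SU-DHL-5, CD3E of the T-cell markers (-2.61) and LYZ of the myeloid markers (-2.35) were also lower, at summed marker levels of at most 1.24 and 1.35 RPKM.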
